A study of Mus musculus with 2 samples.

Results

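The genes described here encode the machinery that shortens poly(A) tails, removes caps and degrades messenger RNA. They were picked out by a pattern of gene names that covers the Cnot, Exosc, Dcp1 and Dcp2, Xrn1 and Xrn2, Pan2 and Pan3, Upf, Smg, Lsm, Edc3 and Edc4 genes. Of 53 RefSeq mouse gene symbols that fit this choice, 47 were listed in at least 1 of the 2 libraries, out of 8262 gene names in all, and the other 6 were not analysed here. A site was a listed position with at least 20 reads in replicate 2. By that rule 28 of the genes carried 108 sites, of 16212 sites in 3919 genes. Among all 8057 genes listed in replicate 2 the share with a site was 48.6%. Of the 46 decay genes listed there it was 60.9%.

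Both libraries came from wild-type retinal organoids at day 6, grown from the Rx:GFP line and differentiated with AGN at 0.1 µM throughout. In this mouse stem cell line green fluorescent protein reports Rax, a transcription factor gene that marks the eye field. Poly(A)-selected RNA, 1 µg per library, was read as native RNA on nanopores with RNA002 chemistry for about 48 h, each library on a flow cell of its own. They form 1 group with n = 2 and carry the same batch label, so no conditions were compared and no p-value is given. Nothing in the labels says whether the replicates were separate cultures. Of 13 eye-field and retinal progenitor markers, 9 had sites, Rax and Lhx2 among them. The tables used here held no position for any of the 8 pluripotency, 7 mesoderm and endoderm, or 4 neural crest and spinal cord markers, and of 3 pigment epithelium markers only Dct was listed, at 5 reads.

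Decay of most messenger RNAs begins with deadenylation. PAN2-PAN3 and then CCR4-NOT shorten the poly(A) tail, after which the body of the RNA is degraded from its 5′ end, following decapping, by Xrn1, or from its 3′ end by the RNA exosome. N6-methyladenosine (m6A), a methyl mark on adenosines in messenger RNA, is linked to this machinery, because the reader protein YTHDF2 recruits CCR4-NOT to methylated transcripts. The measurements below concern marks on the transcripts that encode the machinery itself.

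Direct RNA sequencing infers m6A from the ionic current of an RNA strand in the pore. For each listed position the tables give a fraction modified, between 0 and 1, and a coverage in reads. All positions lie in 4 motifs of 5 bases, shown here in DNA letters. Over all sites the median fraction in replicate 2 was 0.667 at the motif that ends in adenine and 0.230 to 0.263 at the others. The capital marks the adenosine at the centre of each motif.
Motif whose last base is adenine, the most frequent: ggAca
Motif whose last base is cytosine: ggAcc
Motif that begins with guanine and ends in thymine: ggAct
Motif that begins with adenine: agAct
Positions are printed as the listed end of each interval, counted from the transcript start. Which base this marks was checked at 49 replicate 2 positions within the first 45 nt whose motif occurs in the RefSeq sequence around the start of the gene (GRCm38.p6). The listed end held base 4 of the motif at 19 of them, base 3 at 2, and base 2 and base 5 at 1 each, with the motif elsewhere at the others. The commonest placement thus puts the listed end 1 base past the central adenosine.

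Depth decided which genes could be described. The deepest listed position of a gene had between 5 and 271 reads in replicate 2 over the 46 genes listed there. All 5 decapping genes remained under 20 reads: Edc3 reached 19, Edc4 16, Dcp2 15, Dcp1a 13 and Dcp1b 5. Pan2, the catalytic subunit of PAN2-PAN3, reached 10. Among the nonsense-mediated decay genes only Smg5 passed, while Upf1, the helicase at the centre of that pathway, reached 11, Upf3a 14, Upf3b 11, Upf2 8, Smg8 13, Smg9 9 and Smg1, its kinase, 8. Cnot6l (5), Exosc10 (13), Lsm6 (14), Lsm11 (9) and Lsm12 (16) also fell short, and Lsm8 was listed in replicate 1 alone, at 6 reads. These 19 genes are not described further. Coverage of a position is no measure of expression per length, and in whole organoids fewer cells and less RNA per cell cannot be told apart. At the decay-gene sites with 20 or more reads in both libraries, replicate 2 had a median of 2-fold the reads of replicate 1.

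**Figure D1:**
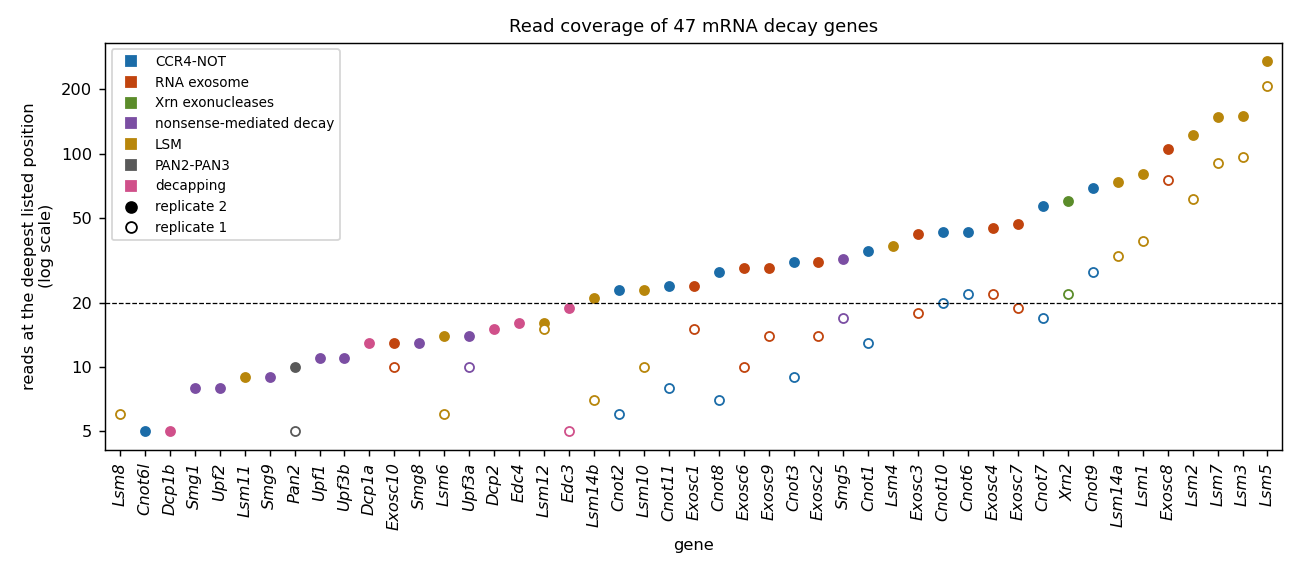
Reads at the deepest listed position of each of 47 mRNA decay genes (log scale), filled for replicate 2 and open for replicate 1, coloured by complex. The dashed line marks 20 reads. Lsm5, at 271 and 207 reads, is the deepest, and all decapping genes lie below the line.

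Over the 108 sites the median fraction in replicate 2 was 0.264 (interquartile range 0.110 to 0.607), against 0.345 (0.150 to 0.673) over all sites. In replicate 1 the decay genes had 25 positions with at least 20 reads, 22 of them among these 108 sites, with a median of 0.286. A fraction of 0.5 or more was seen at 37 sites, or 34.3% (95% Wilson interval 26.0% to 43.6%), and the share over all sites was 37.5%. At least 0.8 was reached by 15 sites (13.9%), against 17.6% of all. A fraction of 0.1 or less was listed at 26 sites, or 24.1% (17.0% to 32.9%), beside 16.6% of all sites. These intervals cover counting error only. Sites of 1 transcript share their reads, so the differences are descriptions of these libraries.

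**Figure D2:**
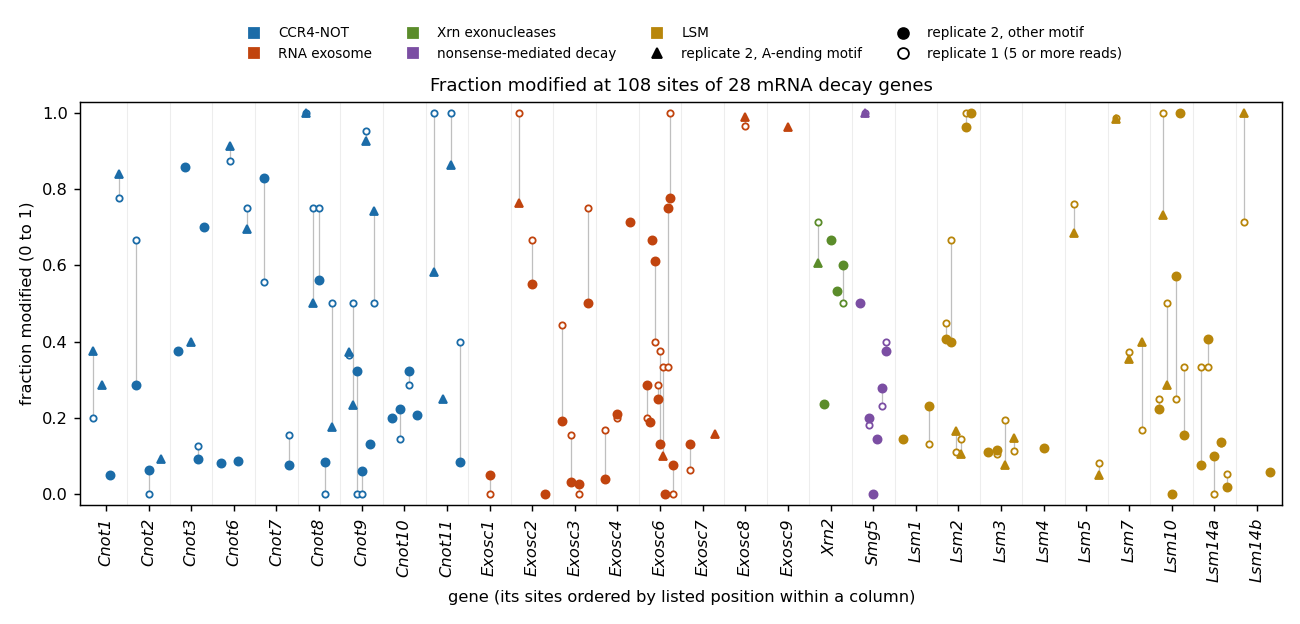
Fraction modified at the 108 sites, by gene and complex. Filled symbols are replicate 2 (triangles for the motif ending in A, circles for the other motifs), open circles replicate 1 where listed with at least 5 reads, and grey lines join both. Most genes with several sites span low and high fractions, while Lsm3 lies between 0.0769 and 0.194 throughout.

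CCR4-NOT had 38 sites in 9 genes and a median fraction of 0.304 in replicate 2. Coverage there was 20 to 69 reads, and 4 of the sites also had 20 reads in replicate 1. At those 4, of which 3 lie in Cnot9 and 1 in Cnot10, the mean was 0.558 ± 0.0459 (SD, n = 2). Single sites ran from 0.05 in Cnot1 to 1 in Cnot8.

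The deadenylase subunits were Cnot6, a Ccr4-type nuclease, and the Caf1-type nucleases Cnot7 and Cnot8. Together they had 11 sites with a median of 0.5, against 0.286 at 27 sites of the other Cnot genes. With each site ranked among all replicate 2 sites of its motif, the order was the opposite, with a median percentile of 36.8 against 40.7. Cnot8 (chromosome 11, 57994979 to 58009420, gene coordinates as deposited throughout) held the highest site of the complex, a GGACA at position 74 where replicate 2 gave a fraction of 1 over 27 reads and replicate 1 also gave 1, over 5 reads. Its lowest was an AGACT at position 1095, with 0.0833 over 27 reads and 0 over 7. Cnot7 (chromosome 8, 40945581 to 40968888) carried a GGACT at position 545 with 0.829 over 56 reads in replicate 2 and 0.556 over 15 in replicate 1. That value lay at the 93.3 percentile of all GGACT sites of replicate 2. Its other site, a GGACC at position 1548, had 0.0769 over 57 reads and 0.154 over 17. The order of the pair was therefore the same in both libraries. In Cnot6 (chromosome 11, 49562330 to 49603550) both GGACA sites were high, with 0.914 over 43 reads and 0.875 over 12 at position 2813, and 0.696 over 29 and 0.75 over 10 at position 5243. A GGACC and a GGACT of the same transcript, at positions 2061 and 4091, had 0.08 and 0.087 over 31 reads each in replicate 2 and were not listed in replicate 1.

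Cnot1, the scaffold on which the complex assembles (chromosome 8, 96446079 to 96534092), had 4 sites on a pair of transcripts, none of them before position 4778. The highest was a GGACA at position 5928, with 0.839 over 35 reads in replicate 2 and 0.778 over 10 in replicate 1. The lowest was a GGACC at position 4998, with 0.05 over 23 reads in replicate 2 alone. Cnot2 and Cnot3 form the NOT module with the C-terminal part of Cnot1. The 3 sites of Cnot2 ran from 0.0625 to 0.286 in replicate 2 with 20 to 23 reads, the highest (position 1772) having 0.667 over 6 reads in replicate 1, and the 5 sites of Cnot3 from 0.0909 to 0.857 with 21 to 31 reads. The highest of Cnot3, a GGACC at position 931, lay at the 95.4 percentile of its motif, but 4 of its 5 sites were not listed in replicate 1.

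Cnot9, the subunit that binds the TNRC6 proteins of the microRNA pathway (chromosome 1, 74545217 to 74570001), was the deepest Cnot gene and had 7 sites between positions 1788 and 3022 of 1 transcript. A GGACA at position 2650 had 0.952 over 23 reads in replicate 1 and 0.926 over 61 in replicate 2, a mean of 0.939 ± 0.0187 (SD, n = 2). Another at position 1788 had 0.364 over 22 and 0.372 over 64 reads, a mean of 0.368 ± 0.00601 (SD, n = 2). The gap between this pair, which share motif, transcript and replicates, was far larger than the difference between libraries. The GGACA at position 3022 had 0.5 over 28 reads in replicate 1 and 0.742 over 69 in replicate 2, a mean of 0.621 ± 0.171 (SD, n = 2). That difference of 0.242 was the only one over 0.2 among the 22 decay-gene sites with 20 reads in both libraries. Over all 5221 such sites the share was 5.94%. On the same transcript, with 19 reads in replicate 1, the GGACA at position 2026 went from 0.5 there to 0.233 in replicate 2 and the AGACT at position 2098 from 0 to 0.323.

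Cnot10 and Cnot11, which bind the N-terminal part of Cnot1, had 4 sites each. Those of Cnot10 lay close together, from 0.2 to 0.321 in replicate 2. The GGACC at position 2590, with 20 reads in replicate 1, had 0.286 there and 0.321 over 43 reads in replicate 2, a mean of 0.304 ± 0.0252 (SD, n = 2). Cnot11 ranged from 0.0833 at a GGACT (position 1733) to 0.864 at a GGACA (position 1265) in replicate 2, over 24 reads each. Replicate 1 gave 0.4 over 8 reads and 1 over 6.

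The RNA exosome is a barrel of 6 ring subunits (Exosc4 to Exosc9) with a cap of 3 RNA-binding subunits (Exosc1 to Exosc3). It had 26 sites in 8 genes, with a median of 0.201 and coverage from 24 to 105 reads. The cap genes had 8 sites with a median of 0.121, and the ring genes 18 with a median of 0.230. The highest site of the complex was the GGACA at position 653 of Exosc8 (chromosome 3, 54636099 to 54642814), with 0.967 over 70 reads in replicate 1 and 0.989 over 105 in replicate 2, a mean of 0.978 ± 0.0157 (SD, n = 2). Near-complete modification there was thus seen at depth in both libraries. Exosc8 also had positions 658 (0.163 over 70 reads) and 1119 (0.234 over 75 reads) in replicate 1 that were not listed in replicate 2, although the former lies 5 nt from the shared site. Exosc9, whose only site was a GGACA at position 252, had 0.963 over 29 reads in replicate 2.

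Exosc6 (chromosome 8, 111782971 to 111784296) had the most sites of the genes chosen by name, 11 on 1 transcript, all with 25 to 29 reads in replicate 2 and at most 10 in replicate 1. Its fractions ran from 0 at a GGACT (position 1087, also 0 over 10 reads in replicate 1) to 0.778 at a GGACC (position 1206, 1 over 10 reads in replicate 1). Only 8 nt further, the GGACT at position 1214 had 0.0769 in replicate 2 and 0 in replicate 1. The high and the low member of this pair kept their order in both libraries. At position 1145, in contrast, a GGACC had 0.75 over 29 reads in replicate 2 and 0.333 over 10 in replicate 1.

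Among the other exosome genes, Exosc4 had 0.2 over 22 reads and 0.211 over 44 at the GGACT of position 702, a mean of 0.205 ± 0.00743 (SD, n = 2), 0.167 over 19 reads and 0.04 over 43 at position 561, and 0.714 over 45 reads at position 831, the last in replicate 2 alone. These 3 sites share the motif, so the motif does not order them. Exosc3 ran from 0.027 at position 380 to 0.5 at position 849 in replicate 2, over 37 to 42 reads, and replicate 1 gave 0 over 16 reads and 0.75 over 18 there. Exosc2 had 0.765 at position 159, 0.55 at position 930 and 0 at position 1262, over 24, 28 and 31 reads. In replicate 1 positions 159 and 930 had 1 over 12 reads and 0.667 over 14. Both sites of Exosc7 were at or under 0.158, and the single site of Exosc1 had 0.05 over 24 reads and 0 over 15 in replicate 1.

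LSM proteins form ring-shaped heptamers on RNA: Lsm1 to Lsm7 activate decapping in the cytoplasm, and Lsm2 to Lsm8 bind U6 RNA in the nucleus. In replicate 2 the 18 sites of Lsm1 to Lsm8 had a median of 99 reads, from 21 to 271, while Lsm6 reached 14 reads and had no site. All Lsm genes together had 32 sites in 9 genes and a median fraction of 0.193. At the 15 sites with 20 reads in both libraries the mean was 0.322 ± 0.000514 (SD, n = 2), while the median was 0.149, since a few sites near 1 stand above many low ones. This SD is that of the 2 library means, in which opposite differences at single sites cancel. From replicate 1 to replicate 2, position 378 of Lsm3 went from 0.194 to 0.0769 and position 1035 of Lsm1 from 0.130 to 0.230.

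Lsm7 (chromosome 10, 80688655 to 80691043) and Lsm5 each had a high and a low site of equal motif. In Lsm7 the GGACA at position 32 had 0.988 over 89 reads in replicate 1 and 0.984 over 141 in replicate 2, a mean of 0.986 ± 0.00269 (SD, n = 2). The GGACA at position 329 had 0.373 over 90 and 0.354 over 149 reads, a mean of 0.363 ± 0.0134 (SD, n = 2). Lsm5 (chromosome 6, 56678048 to 56681695) carried GGACA at positions 81 and 140 of 1 transcript. The first had 0.762 over 202 reads and 0.685 over 264, a mean of 0.724 ± 0.0545 (SD, n = 2), and the second 0.0815 over 207 and 0.05 over 271, a mean of 0.0658 ± 0.0223 (SD, n = 2). Position 140 lay at the 2.20 percentile of all GGACA sites in replicate 2. A GGACA of another Lsm7 transcript, at position 419, had 0.4 over 21 reads in replicate 2 and 0.167 over 13 in replicate 1. On the single listed transcript of Lsm5 and the higher-coverage transcript of Lsm7, the higher site was the one nearer the transcript start, in each library.

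In Lsm2 (chromosome 17, 35200838 to 35204867) the order of motifs was opposite to that of the medians over all sites. The GGACT at position 699 of transcript ENSMUST00000114011.10 had 1 over 61 reads in replicate 1 and 0.962 over 122 in replicate 2, a mean of 0.981 ± 0.0269 (SD, n = 2), at the 98.3 percentile of its motif. The GGACA at position 437 had 0.111 over 61 and 0.165 over 119 reads, a mean of 0.138 ± 0.0378 (SD, n = 2), at the 10.7 percentile of its motif. The GGACC at position 302 lay between them with 0.447 over 60 and 0.406 over 118 reads, a mean of 0.427 ± 0.0294 (SD, n = 2). The same 3 motifs recurred 33 nt further along a second Lsm2 transcript, with 0.4, 0.105 and 1 over 23 to 25 reads in replicate 2. A constant shift of this kind means that the 2 sets may be the same bases on transcripts with different starts.

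Lsm3 (chromosome 6, 91492910 to 91499607) was low everywhere. Its AGACT at position 257 had 0.105 over 94 and 0.116 over 145 reads, a mean of 0.111 ± 0.00820 (SD, n = 2), and its GGACA at position 498 had 0.113 over 96 and 0.148 over 150, a mean of 0.130 ± 0.0248 (SD, n = 2). On a second transcript the same motifs appeared 120 nt earlier, at 0.111 and 0.0769 in replicate 2, and the GGACA there had 0.194 over 43 reads in replicate 1. Lsm1 had 0.130 over 39 and 0.230 over 79 reads at position 1035, a mean of 0.180 ± 0.0701 (SD, n = 2), and 0.145 over 80 reads at position 802 in replicate 2 alone. The single site of Lsm4 had 0.121 over 37 reads.

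**Figure D3:**
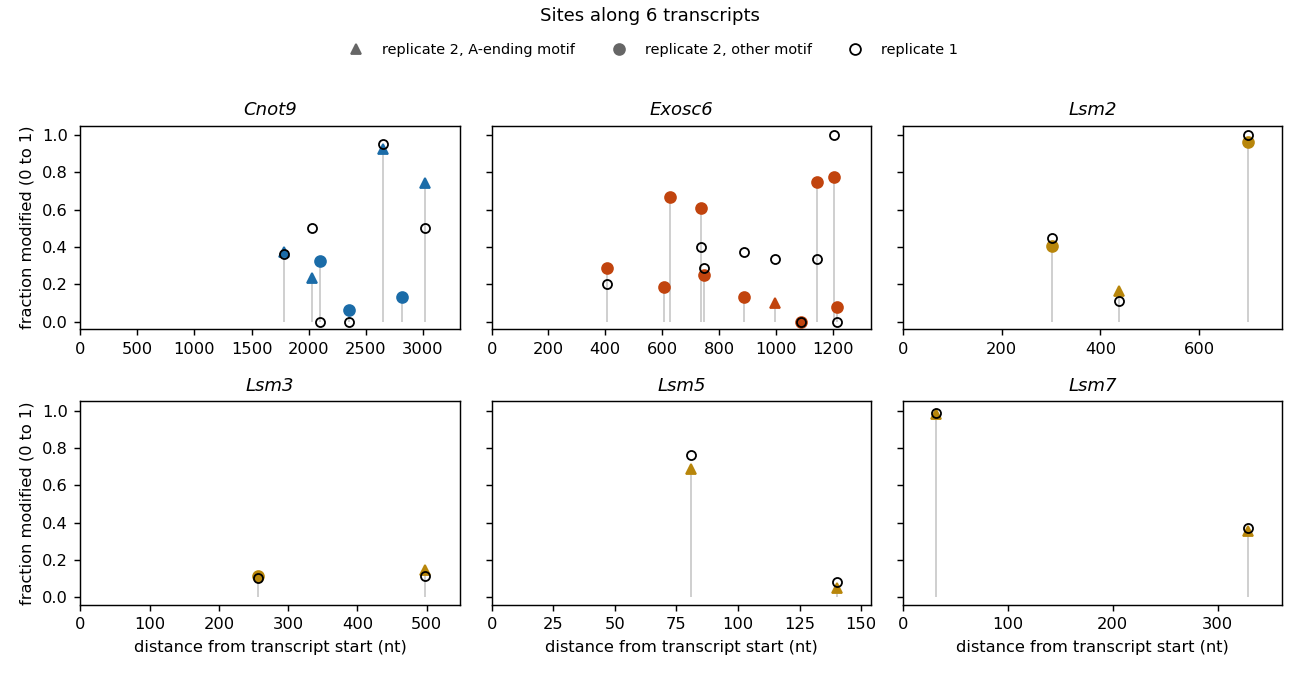
Fraction modified against distance from the transcript start for 6 transcripts. Filled symbols are replicate 2 (triangles, the motif ending in A) and open circles replicate 1. Lsm7 has 0.986 at 32 nt and 0.363 at 329 nt, and in Lsm2 the last site is the highest at 0.981.

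The Lsm genes outside the rings carry the same domain in other roles. Lsm14a and Lsm14b are P-body proteins that bind the helicase Ddx6, and Lsm10 belongs to the U7 particle that processes histone messenger RNA. The 5 sites of Lsm14a (chromosome 7, 34044071 to 34092740) were at or under 0.407. Its AGACT at position 1562 had a mean of 0.370 ± 0.0524 and the GGACT at position 2457 one of 0.134 ± 0.00127, over 33 and 21 reads in replicate 1 and 74 and 65 in replicate 2. The GGACC at position 1593 had 0.0492 ± 0.0696 and the GGACT at position 2527 had 0.0351 ± 0.0248 (each SD, n = 2). Lsm10 had 7 sites over 23 reads each, from 0 at an AGACT (position 583, also 0 over 6 reads in replicate 1) to 1 at a GGACC (position 722, replicate 2 alone). Lsm14b had 1 at a GGACA (position 1882, 21 reads, and 0.714 over 7 in replicate 1) and 0.0588 at a GGACT on another transcript (position 2485, 20 reads).

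Xrn2, the nuclear 5′ to 3′ exonuclease that acts in transcription termination (chromosome 2, 146854916 to 146919920), had 5 sites with a median of 0.6 over 41 to 60 reads, and 4 of them had at least 0.5. The GGACC at position 2869 had 0.5 over 22 reads in replicate 1 and 0.6 over 60 in replicate 2, a mean of 0.550 ± 0.0707 (SD, n = 2). Except for a GGACT at position 1762 with 0.235, the fractions lay within 0.533 to 0.667 although they span 3 motifs. Of the 5 sites, 3 were not listed in replicate 1.

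Smg5, which acts on phosphorylated Upf1 in nonsense-mediated decay (chromosome 3, 88243567 to 88269645), had 7 sites over 22 to 32 reads. They ran from 0 at an AGACT (position 3317, replicate 2 alone) to 1 at a GGACA (position 3104), which also had 1 over 12 reads in replicate 1. The AGACT sites at positions 4055 and 4415 had 0.278 and 0.375 in replicate 2, close to the 0.231 and 0.4 of replicate 1 over 16 and 17 reads.

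By motif, the decay genes held 36 GGACA (33.3%), 27 GGACC (25.0%), 26 GGACT (24.1%) and 19 AGACT sites (17.6%). Over all sites the shares were 35.6%, 22.1%, 24.2% and 18.1%, each within the Wilson interval of the decay genes. The median at GGACA was 0.45 against 0.667 over all GGACA sites of replicate 2, and 18 of 36 reached 0.5, against 64.1% of all. That gap depended on which sites were counted. With 1 transcript per gene the GGACA median was 0.595 (32 sites), without the Lsm genes it was also 0.595 (24 sites), and with no coverage minimum 0.625 (98 sites). With 50 reads it was 0.372 (11 sites), and in replicate 1 it was 0.373 (11 sites, against 0.674 over all). The median at the AGACT motif was 0.222 against 0.263 over all its sites. It was 0.222 against 0.231 at the GGACC motif, and 0.139 against 0.230 at the GGACT motif. Of 17 decay-gene transcripts with a GGACA and another motif, the highest fraction was at a GGACA on 9. Over 2529 such transcripts of the series the share was 74.3%. Transcripts, not genes, were counted in each case. Both transcripts of Lsm2 and both of Lsm3 are among the 17, so the same bases may be counted more than once.

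**Figure D4:**
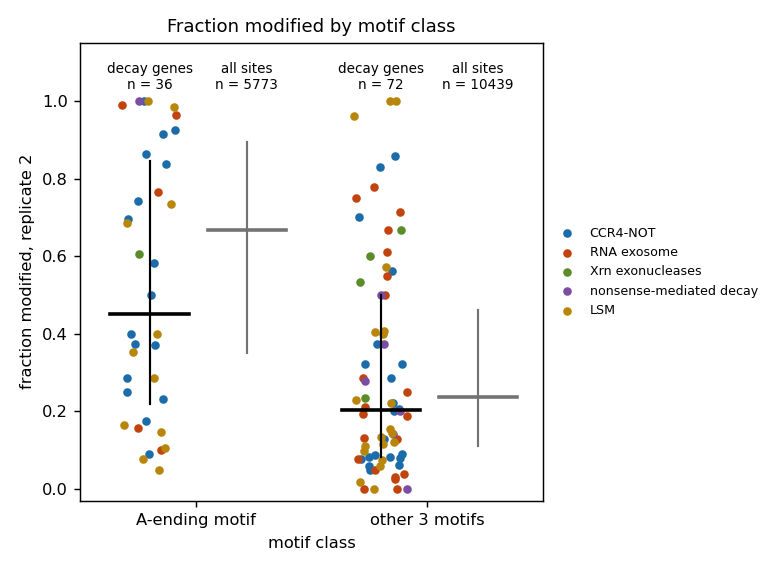
Fraction modified in replicate 2 at decay-gene sites (points, coloured by complex), split by the motif that ends in A and the other 3. Thick bars are medians and thin lines interquartile ranges, black for the decay genes and grey for all sites. At the A-ending motif the median is 0.45 against 0.667.

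Ranking each site among all sites of its own motif put the median Lsm site at the 28.3 percentile, the CCR4-NOT site at 38.7, the exosome site at 45.3, the Smg5 site at 52.6 and the Xrn2 site at 81.3. For all decay-gene sites it was 43.3. Fractions varied widely within transcripts: on the 26 transcripts with at least 2 sites the median range was 0.655, close to the 0.643 over 3466 transcripts of the series.

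Replicates were compared by depth class. The root mean square difference was 0.0756 at the 22 sites with 20 reads in replicate 1 (0.0999 over all such sites), 0.176 at 32 sites with 10 to 19 reads (0.166) and 0.223 at 23 sites with 5 to 9 reads (0.215). Differences over 0.2 were seen at 1 of the 22 sites, at 12 of the 32 (37.5%, against 19.9% of all sites of that depth) and at 11 of the 23 (47.8%, against 29.8%). At the 22 sites replicate 2 gave the higher fraction at 13 and the lower at 9, against 2390 and 2733 over all such sites, and at the 10 with 50 or more reads in replicate 1 it was higher at 4 and lower at 6. Pearson's r across those 22 sites was 0.975, as a description of sites that share libraries and, in part, transcripts.

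**Figure D5:**
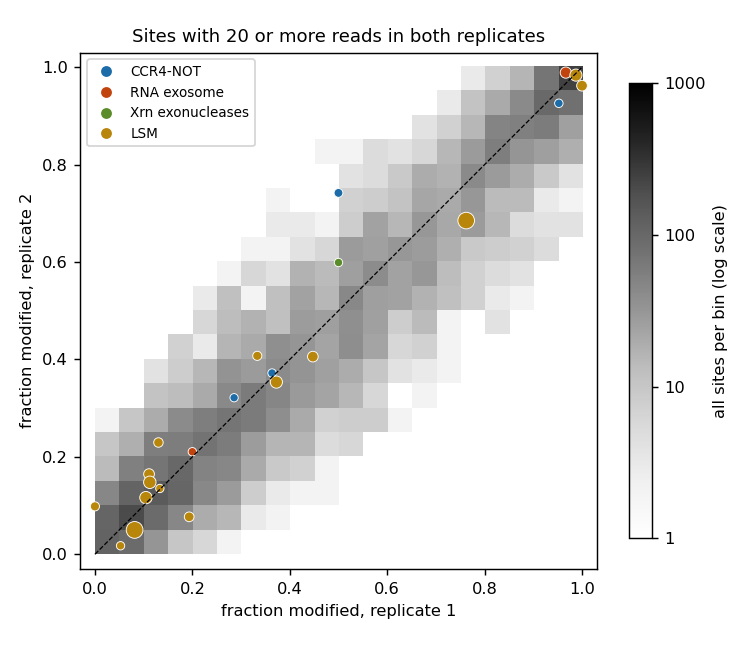
Fraction modified in replicate 1 against replicate 2 where each library had 20 reads or more. Coloured points are the 22 decay-gene sites, larger with more reads in replicate 1, the grey shading counts all 5221 sites per bin (log scale), and the dashed line marks equality. The Cnot9 site at 0.5 and 0.742 lies farthest from the line.

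Of the 108 sites, 31 were not listed in replicate 1 (28.7%, against 25.2% of all sites). Of these, 11 lay on transcripts with a listed position of 20 or more reads in replicate 1, as did 1286 of the 4091 unlisted sites over all genes. Examples are position 802 of Lsm1, with 80 reads in replicate 2 and 39 at the neighbouring listed position in replicate 1, and position 2817 of Cnot9, with 65 and up to 28. What decides the listing was not stated, so an unlisted position is not read as unmodified.

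Position along the transcript played no part in choosing the genes. In 6 genes, 7 sites lay within the first 150 nt (6.48%, Wilson interval 3.18% to 12.8%, against 2.21% of all sites), and 3 of these had at least 0.5, position 32 of Lsm7 and position 74 of Cnot8 among them. Over all sites of the first 150 nt, 158 of 358 reached 0.5. Lsm genes held position 32 of Lsm7, positions 81 and 140 of Lsm5, and position 137 on the second transcript of Lsm3. Neither transcript length nor coverage along the transcript was taken into account in these shares. Beyond 3000 nt lay 13 sites (12.0%, against 13.1%). Within 20 nt of each other lay 4 pairs of decay-gene sites. Such pairs were not counted over all sites, so the number cannot be called high or low. Besides the Exosc6 pair at 1206 and 1214, these were Exosc6 positions 736 and 748 (0.611 and 0.25 in replicate 2, 0.4 and 0.286 in replicate 1), Cnot11 positions 966 and 977, both GGACA (0.583 and 0.25 in replicate 2, the former 1 over 5 reads in replicate 1 and the latter not listed there), and Cnot10 positions 2590 and 2604 (0.321 and 0.207).

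Other genes of mRNA decay were taken from a list of 64 symbols, which includes older symbols of some genes. Of these, 54 were listed and 28 had sites, 119 in all, with a median of 0.267 and 39 sites (32.8%) at 0.5 or more. Both values lie near those of the 108 sites above. The share is also near the 37.5% of all sites, whose median was 0.345. Among all genes listed in replicate 2, 48.6% had a site. Noct, a member of the Ccr4 nuclease family, had the most sites, 13 with a median of 0.3, followed by Gspt1, a translation termination factor that takes part in nonsense-mediated decay, with 12 and a median of 0.536. Several Gspt1 motifs recurred at a constant shift on another transcript, such as GGACA at positions 900 and 1218 and again at 958 and 1276. Its count and rank may therefore include the same bases more than once. The highest site with the most reads was a GGACA at position 801 of Zfp36l1, which binds AU-rich elements and recruits CCR4-NOT, with 1 over 104 reads in replicate 2 and 1 over 18 in replicate 1. The lowest value, 0 in replicate 2, was shared by an AGACT at position 5578 of Ddx6 (41 reads, and 0.222 over 11 in replicate 1) and one at position 3035 of Dis3 (40 reads, and 0.2 over 11).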

How the data were processed

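Per the labels' protocols, native poly(A) RNA of 2 wild-type day 6 organoid libraries was sequenced on nanopores. The submitters' processing notes name the build mm10; caller, aligner and thresholds are not given in the sources used here. The deposited gene starts lay within 1000 bases of RefSeq GRCm38.p6 for 3.03% of 8174 matched names, so coordinates are printed as deposited, with no build assigned. Coverage is a deposited count of reads per position (5 or more), and the fraction modified a deposited fraction with no stated denominator: at 12.9% of all sites it was a whole multiple of 1 over the coverage, within rounding. No interval was therefore set on single fractions.

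Replicates were matched on transcript and listed end (Python 3.11.15, pandas 2.3.3, SciPy 1.17.1). Means ± SD (n = 2) are given only with 20 or more reads in both. Functions were tested on simulated data. Genes and lists were chosen with earlier results of these data known. Every site with 20 reads in both libraries was named, otherwise mainly the highest and lowest of a gene. Splitting of reads among transcripts or between paralogs such as Cnot7 and Cnot8 was not stated. The tables named minus held no decay gene. Position in exons or untranslated regions was not analysed here.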

Additional observations from a re-analysis of the deposited data

How the results depend on the processing

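Coverage sets the counts. Without a minimum beyond the deposited one there were 293 sites in 46 genes, 104 listed in both replicates, a median of 0.286 and a root mean square difference of 0.193. With 50 reads there were 28 sites in 10 genes, 10 in both, and a difference of 0.039. Of the 108 sites, 77 were listed in replicate 1 at any coverage. Without each replicate in turn the counts ran from 25 to 108 sites and 12 to 28 genes, and the median from 0.264 to 0.286. With 1 transcript per gene the difference was 0.0731. Without the Lsm genes other than Lsm1 to Lsm8 it was 0.0779, and the median 0.282. A threshold of 0.8 gave a share of 13.9%. Medians in place of means were 0.494 for CCR4-NOT and 0.149 for LSM. The other decay genes had 63 sites with 50 reads. Of 66 medians of single genes under alternatives added after seeing the data, 13 moved by more than 0.0535, the replicate spread, 9 of them without a minimum. No paired analysis was possible because the samples form 1 group.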
